A study of Arabidopsis thaliana with 18 samples.

Results

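Roots of potassium-starved Arabidopsis thaliana were compared with roots of control plants on Affymetrix ATH1 arrays, which measure transcript abundance as the brightness of 1 probe set per transcript. Its arrays were taken by their labels, and it holds 6 of the 18 arrays of the series, 3 of potassium-starved and 3 of control roots. All plants were of ecotype ws-2 at growth stage 3.90, and the organ was given as all root material. Potassium-starved plants grew on a dilute MS nutrient solution from which potassium was omitted, while the labels state no treatment for the controls. The 3 arrays of caesium-treated roots, from plants given 2 mM caesium, served as a further group, and the 6 arrays of potassium-starved and control shoots showed where roots and shoots differed. Between 40 and 50 plants were pooled, and the labels do not say whether replicates were sown separately. A p-value here therefore reflects only how far these samples spread, which may be technical. In such bulk samples, fewer cells of a type and less RNA per cell cannot be told apart.

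Potassium is the main cation of plant cells. It sets turgor for cell expansion, balances charge during nitrate transport and is a cofactor of many enzymes, and roots take it up through channels and high-affinity transporters. Low potassium is known to slow growth, to alter amino acid metabolism and to engage calcium, ethylene and jasmonate signalling.

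The arrays carried root RNA by the markers measured. PYK10, a beta-glucosidase of root ER bodies, read between 1914.9 and 3501.4 on the 6 arrays. The 5 of 13 green-tissue markers with a probe set summed to 117 to 231.1 in control roots and 170.4 to 277.5 in potassium-starved roots, against 6481.4 to 13276 in shoots. Root hair markers, 4 of 8 with a probe set, summed to 192.5 to 454.6 in control and 156.3 to 176.7 in potassium-starved roots, and the highest control sum rested on AT3G49960 at 210.3 in replicate 2. Listed markers of the endodermis, xylem and phloem were not analysed here. The potassium-starved replicate 1 array was titled as a repeat. Scanner background was lower on the potassium-starved arrays, at 65.3 ± 7.48 against 77.0 ± 1.89 on control arrays (n = 3, ± SD). An exact permutation test of this difference, two-sided, gave p = 0.1, which no result of 3 against 3 arrays can go below. Its part in the results below was examined only as a covariate in the fit.

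Of 13647 probe sets with a mean signal above a floor of 27.7, 200 changed, 133 upward and 67 downward, at a limma adjusted p under 0.05. These were 1.47% of those tested, 0.975% higher and 0.491% lower. Changes are differences in log2 of the signal plus 16, and their median over everything tested was -0.02. A gene name could be given to 101 of the 200, of which 66 rose and 35 fell. A further 98 were not listed in the annotation used here, 67 of them higher and 31 lower, with log2 changes between -1.76 and 2.84. On all 200, the 3 potassium-starved arrays did not overlap the 3 control arrays. This was so for 22.3% of all tested probe sets, 10.2% higher and 12.1% lower. Where such separation is given below for a called gene, it adds no further support. The count was 85 without control replicate 1, 116 without control replicate 2, 48 without potassium-starved replicate 2 and 40 without potassium-starved replicate 3. With scanner background as a covariate 1 probe set, AT3G12900, passed, while all 200 kept their sign. Of 38 called genes named here by a rule of size, p and list, 11 passed without each of the 6 arrays in turn. AT1G53540, among these, had control and caesium-treated means below the floor and entered the test only through its high group. For the other 27 the highest adjusted p on leaving out 1 array lay between 0.0563 (HIS1-3 and AT3G05900) and 0.186 (IQD30 and AT2G29340).

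The largest rise of a named gene was that of AT3G12900, a gene of coumarin synthesis. It read 131.7, 102.8 and 181.6 in control roots and 948.4, 939.9 and 1007.3 in potassium-starved roots. All 3 potassium-starved arrays lay far above the highest control array. The log2 change was 2.70 ± 0.17 (SE; limma adjusted p = 8.5e-05). In caesium-treated roots the gene read 53.6, 58.7 and 49.5, below every control array.

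AT3G13610, which the annotation also lists as F6'H1, an enzyme of coumarin synthesis that roots use to mobilise iron, was among the brightest genes named. It read 1580.2, 1980.7 and 1640.0 in control and 3497.2, 3572.5 and 3032.8 in potassium-starved roots. The groups lay far apart, and the log2 change was 0.95 ± 0.15 (limma adjusted p = 0.0127). Without potassium-starved replicate 2 the adjusted p was 0.0649. Both genes belong to a list of 15 tested genes of iron, zinc and other metals, of which 2 rose, 0 fell and 13 had a positive change, with a median of 0.28. Of all tested probe sets, 0.975% rose and 46.9% had a positive change. All gene lists were chosen with earlier results of these data known, so a larger share in a list may come from that choice. The transcription factor PYE, a regulator of the iron-deficiency response, read 77.7, 71.5 and 84.3 in control and 120.5, 115.5 and 126.2 in potassium-starved roots. Its groups did not overlap, and its change of 0.54 ± 0.13 missed the threshold (limma adjusted p = 0.0643). bHLH115, another iron regulator, had values of 528.6, 539.1 and 585.5 against 721.0, 731.2 and 723.5, a change of 0.39 ± 0.12 (limma adjusted p = 0.121).

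**Figure D1:**
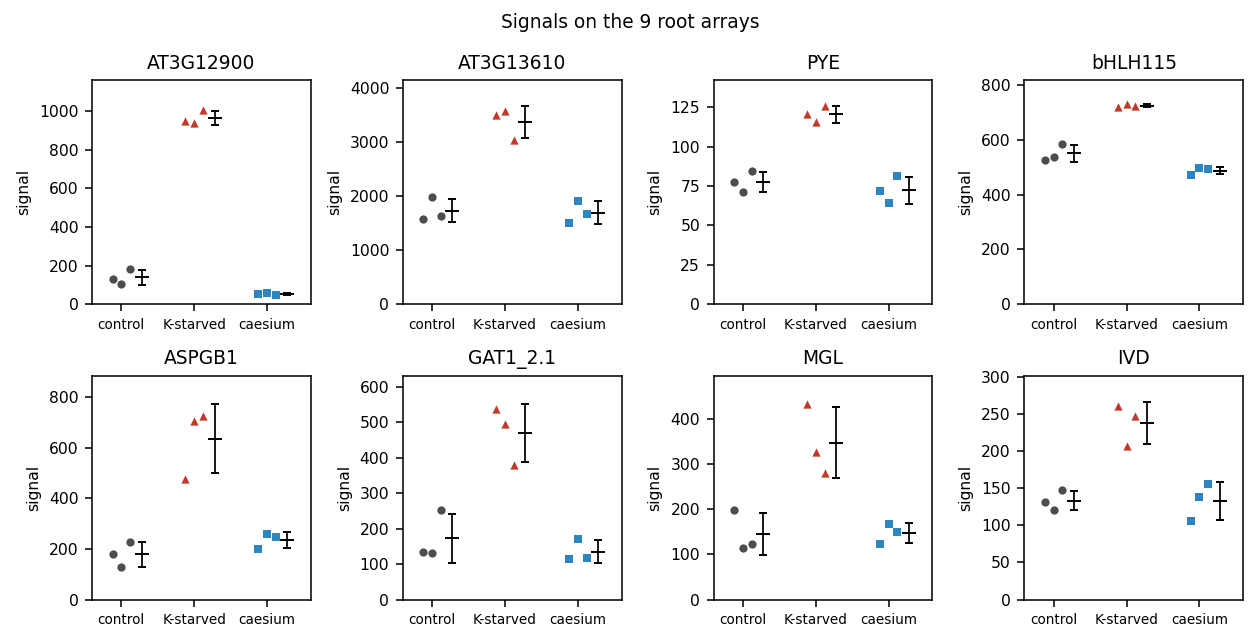
Signal of 4 metal-related genes (upper row) and 4 genes of amino acid metabolism (lower row) on each root array, on a linear axis from 0, with black bars for mean ± SD (n = 3). The 3 potassium-starved arrays (triangles) lie above the control (circles) and caesium-treated arrays (squares) in every panel.

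Potassium transport itself could be followed for few genes. Of 8 named potassium and proton-exchange genes with a probe set, 7 lay below the floor, and only the cation/proton exchanger CHX16 was tested. The 8 are CHX exchangers and the transporter AT1G60160, and no potassium channel is among them. As 8730 probe sets were not listed in the annotation, channels and other uptake transporters were not examined here. CHX16 read 59.7, 21.5 and 47.9 in control and 5.6, 42.1 and 43.6 in potassium-starved roots, and the groups overlapped. The change was -0.43 ± 0.37, with a 95% interval of -1.24 to 0.38 (limma adjusted p = 0.57). The exchangers CHX15, CHX19, CHX20, CHX21, CHX6B and chx28 and the potassium transporter AT1G60160 were not tested, with signals between 0.4 and 25.3 on the 6 arrays. CHX6B read 9.7, 10.7 and 13.8 against 21.6, 18.4 and 20.1, all below the floor.

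Calcium and anion nutrition genes did not pass. As 1.47% of all tested probe sets passed, 0 in a short list says little about that list. Of 12 tested calcium sensors and glutamate receptor-like channels, 0 passed, with a median of 0.13 and 9 positive. AT1G53210, the vacuolar sodium/calcium exchanger NCL, had a change of 0.46 ± 0.18 (limma adjusted p = 0.217). The calmodulin-like genes CML41 and CML43 stood at 0.37 ± 0.15 and 0.21 ± 0.20, and ATGLR1.2 at 0.31 ± 0.14, none past the threshold. Of 7 nitrate and glucosinolate transporters, 0 passed, with a median of 0.01. These included GTR2 (0.38 ± 0.20), GTR1 (-0.13 ± 0.17), AT1G68570 (NPF3.1; 0.23 ± 0.18) and AT1G33440 (NPF4.4; 0.12 ± 0.18). The phosphate list had 1 tested member, LPR2, a ferroxidase of root phosphate sensing, at 0.09 ± 0.22.

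Amino acid breakdown held the most called genes of the metabolic lists, with 4 of 20 tested members higher and 0 lower. Of all tested probe sets, 0.975% rose and 0.491% fell. This list was chosen with earlier results of these data known, so its share may come from that choice. ASPGB1, an asparaginase that releases ammonium from asparagine, read 179.9, 128.9 and 228.6 in control and 478.3, 704.6 and 723.8 in potassium-starved roots, with no overlap. Its log2 change was 1.75 ± 0.22 (limma adjusted p = 0.00615). GAT1_2.1, a glutamine amidotransferase-like protein, read 134.4, 130.4 and 253.4 against 536.7, 495.2 and 379.4, a rise of 1.41 ± 0.24 (limma adjusted p = 0.0211). The lowest potassium-starved array exceeded the highest control array.

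MGL, methionine gamma-lyase, read 198.2, 112.9 and 122.5 in control and 433.0, 326.7 and 280.4 in potassium-starved roots. The rise was 1.19 ± 0.22 (limma adjusted p = 0.0269). IVD, isovaleryl-CoA dehydrogenase of leucine breakdown, read 131.9, 120.9 and 147.3 against 260.4, 206.8 and 247.6, a rise of 0.77 ± 0.16 (limma adjusted p = 0.045). Both sets of groups lay apart. The median of the 20 genes was 0.10 with 13 positive. ASPGB1 passed without each of the 6 arrays in turn, whereas GAT1_2.1 and MGL passed in 2 of these fits and IVD in 0, with highest adjusted p of 0.108, 0.103 and 0.169.

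MGL was also the only called gene of 9 tested in sulphur assimilation. STR18, a rhodanese-like sulphurtransferase, stood at 210.6, 158.3 and 269.2 against 410.2, 403.9 and 287.1 (0.76 ± 0.20, limma adjusted p = 0.0878). MMT, methionine S-methyltransferase, and SIR, sulphite reductase, had lower values that did not pass, at -0.49 ± 0.16 and -0.36 ± 0.15. The median of the 9 was 0.04.

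Of 14 tested transporter and proton pump genes, 0 passed, where 1.47% of all tested probe sets did. The sugar transporters SWEET1 and SFP1 had positive changes of 0.63 ± 0.15 and 0.67 ± 0.28, and SWEET17, a vacuolar fructose transporter, and SWEET13 negative ones of -0.79 ± 0.24 and -0.25 ± 0.29. The 5 vacuolar proton pump genes had changes between -0.14 and 0.06, among them VHA-A1, VHA-A2, AT3G58730 (VHA-D) and AT4G02620 (VHA-F).

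Across 10 wall lists, 6 of 110 tested probe sets fell and 1 rose, with a median of -0.31, where 0.491% of all tested probe sets fell and 0.975% rose. Of the 110, 30 probe sets with 2 of the falls are the cytoskeletal genes described further below. These lists too were chosen with earlier results of these data known. XTH19, a xyloglucan endotransglucosylase that cuts and rejoins wall xyloglucan, read 153.9, 136.2 and 104.8 in control and 79.5, 40.8 and 49.5 in potassium-starved roots. The groups did not overlap, and the change was -1.05 ± 0.20 (limma adjusted p = 0.0363). Where 53.1% of all tested probe sets had negative changes, all 7 tested members of this family did, with a median of -0.61. Of them XTH18, XTH21 and XTH16 stood at -0.87 ± 0.29, -0.98 ± 0.44 and -0.61 ± 0.31 and did not pass. Without potassium-starved replicate 2 or 3, and without control replicate 1 or 2, XTH19 did not pass either, with a highest adjusted p of 0.146.

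Expansins, which loosen walls, went both ways, with 6 of 12 positive and a median of 0.01. EXPA4 read 334.5, 395.1 and 274.9 in control and 553.0, 529.6 and 608.5 in potassium-starved roots, a rise of 0.74 ± 0.15 (limma adjusted p = 0.045). EXPB2 (-1.11 ± 0.32), EXPA18 (-0.53 ± 0.16) and EXPA20 (-0.33 ± 0.17) did not pass. Groups of EXPA4 lay apart, with the lowest potassium-starved array above the highest control.

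Most listed genes of wall acetylation, and all tested ones of a cellulose, hemicellulose and arabinogalactan list, had negative changes. Of all tested probe sets, 53.1% did. TBL41, of the trichome birefringence-like family of wall acetyltransferases, read 52.4, 43.0 and 39.6 against 20.5, 18.1 and 13.4, a change of -0.87 ± 0.17 (limma adjusted p = 0.0409). Its potassium-starved mean lay below the floor, so the size depends on the 16 added. Of 19 tested family members 15 had negative changes, with a median of -0.34, among them TBL28 (-0.62 ± 0.15), TBL25 (-0.55 ± 0.14) and TBL30 (-0.74 ± 0.21), which did not pass. IRX15-L, required for normal xylan chains, read 130.0, 128.3 and 124.6 against 84.7, 79.4 and 81.0, a change of -0.56 ± 0.12 (limma adjusted p = 0.0495). Its replicates were tight in both groups, but it passed in 0 of the 6 fits that left out an array.

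All 16 tested genes listed under cellulose, hemicellulose and arabinogalactan synthesis had negative changes, with a median of -0.26. They included the extensin HRGP1 (-0.61 ± 0.18), COB, which orients cellulose deposition (-0.48 ± 0.15), and XEG113 (-0.46 ± 0.17), none past the threshold. The endoglucanases GH9B7 (-0.55 ± 0.17), GH9C1 (-0.58 ± 0.24) and GH9B8 (-0.41 ± 0.17) did not pass, and GH9A3 stood at 0.31 ± 0.15. The pectin methylesterase genes PMEPCRF, ATPMEPCRB and ATPMEPCRD stood at -0.68 ± 0.24, -0.13 ± 0.34 and -0.09 ± 0.15. SKU5, a multicopper oxidase-like protein of directional root growth, read 1092.5, 771.3 and 669.7 against 568.7, 339.0 and 361.5, a change of -0.98 ± 0.26 that missed the threshold (limma adjusted p = 0.0953). The related sks15 and sks16 stood at -0.65 ± 0.22 and -0.49 ± 0.21. The class III peroxidases PRX52, AT5G64120 (PRX71), PRXR1 and Prx37 had changes between -0.61 and 0.30, with none past the threshold.

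Lignin precursor genes split. UGT72E3, a glucosyltransferase acting on monolignols, read 103.9, 102.1 and 131.8 against 59.2, 51.1 and 44.0, a change of -0.93 ± 0.18 (limma adjusted p = 0.0363). Its relative UGT72E1 read 227.6, 422.6 and 475.6 in control and 793.9, 1067.0 and 934.6 in potassium-starved roots. These groups did not overlap, and the change of 1.33 ± 0.29 missed the threshold (limma adjusted p = 0.0533). HCT and CCR2, of monolignol synthesis, stood at 0.51 ± 0.14 and 0.76 ± 0.23. Over the 8 tested genes the median was 0.18.

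Cytoskeletal genes had negative changes more often than positive ones, 25 of 30, against 53.1% of all tested probe sets. Their median was -0.47. For 15 the potassium-starved arrays all lay below the controls, against 12.1% of all tested probe sets. IQD30, a calmodulin-binding protein associated with microtubules, read 153.1, 89.5 and 96.6 against 62.7, 37.4 and 49.0, a change of -0.96 ± 0.21 (limma adjusted p = 0.0497). AT3G23090, listed also as WDL3, a microtubule-associated protein, read 213.6, 151.1 and 146.4 against 85.1, 78.7 and 88.1, a change of -0.88 ± 0.18 (limma adjusted p = 0.045). Each was the lower group on all 3 arrays. NET1B, an actin-binding protein, and ACT11, an actin, stood at -0.71 ± 0.17 and -0.81 ± 0.20 and did not pass. The root hair sum given above was also lower in potassium-starved roots, though none of its 3 tested markers passed. EXPA7 stood at -0.08 ± 0.18, EXPA18 at -0.53 ± 0.16 and AT3G49960 at -0.92 ± 0.55. The part of root hairs in these falls was not tested.

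**Figure D2:**
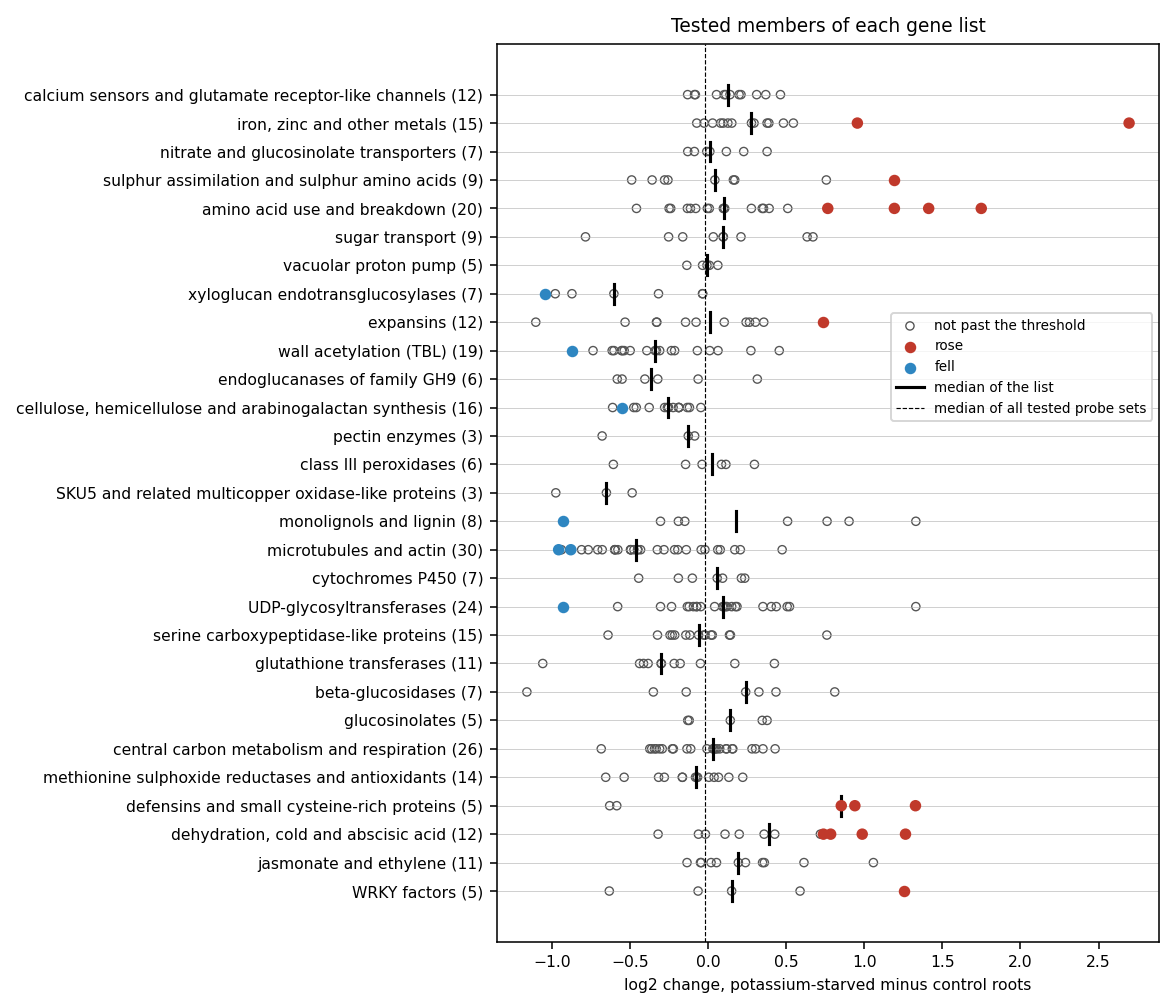
Log2 change (potassium-starved minus control roots) of each tested member of 29 lists with at least 3 tested members; filled points passed an adjusted p of 0.05, red higher and blue lower, short bars mark list medians and the dashed line the median of all tested probe sets at -0.02. Xyloglucan, cellulose, microtubule and actin lists lie to the left, and iron and defensin lists reach to the right.

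Families of specialised metabolism mostly did not pass, where 1.47% of all tested probe sets passed and 53.1% had negative changes. Of 24 UDP-glycosyltransferases UGT72E3 fell and none rose, with GT72B1 at 0.40 ± 0.13 and UGT73B1 at 0.52 ± 0.18. Of 7 cytochromes P450 (CYP71B29, CYP71B6, CYP71B23 and CYP84A4 at 0.21 ± 0.13, 0.23 ± 0.21, -0.45 ± 0.28 and -0.19 ± 0.26) 0 passed. Of 11 glutathione transferases 0 passed and 9 had negative changes, among them GSTU28 (-1.06 ± 0.27, limma adjusted p = 0.0836), GSTU21 (-0.39 ± 0.14) and GSTU23 (-0.44 ± 0.20), with GSTU18 at 0.42 ± 0.18.

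Of 15 serine carboxypeptidase-like genes 0 passed, against 1.47% of all tested probe sets. Among them scpl30 stood at 0.76 ± 0.18, scpl40 at -0.64 ± 0.17, SCPL34 at -0.33 ± 0.17 and scpl29 at -0.25 ± 0.19. The beta-glucosidases BGLU42, BGLU46, BGLU16 and BGLU25 stood at 0.81 ± 0.23, 0.43 ± 0.25, -0.35 ± 0.14 and -1.16 ± 0.48. Among glucosinolate genes BCAT4, an aminotransferase of methionine chain elongation, had 0.35 ± 0.18 and MAMI 0.14 ± 0.20. Of 26 tested genes of central carbon metabolism 0 passed, with SDH1-2, a succinate dehydrogenase subunit, at -0.69 ± 0.16 (limma adjusted p = 0.0626), ICDH at 0.43 ± 0.15, ACLA-1 at -0.31 ± 0.13 and GAPC2 at 0.35 ± 0.15. Antioxidant genes SAPX, GLDH, VTC4 and MSRB9 stood at -0.54 ± 0.20, -0.28 ± 0.13, -0.66 ± 0.41 and 0.22 ± 0.15, all short of the threshold.

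Defence and stress genes held 8 called members of 33 tested, all higher, where 0.975% of all tested probe sets rose. Their lists too were chosen with earlier results of these data known. PDF2.1, a defensin, read 155.5, 194.0 and 144.7 against 374.0, 466.0 and 470.3, a rise of 1.33 ± 0.15 (limma adjusted p = 0.00399). PDF1.4, of the same class, rose from 44.0, 30.5 and 40.8 to 91.9, 81.5 and 90.1, by 0.94 ± 0.14 (limma adjusted p = 0.0104), and LCR69, a small cysteine-rich protein, from 994.4, 1170.3 and 1278.1 to 1899.2, 2527.1 and 1855.5, by 0.85 ± 0.18 (limma adjusted p = 0.0462). All 3 stood apart between groups, and PDF2.1 passed without any single array whereas LCR69 passed in 0 of those fits. The other 2 of 5 tested members of this list had negative changes, also with no overlap, and did not pass. PDF2.5, 1 of these, stood at -0.63 ± 0.18. With array weights both fell past the threshold.

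Dehydration and cold genes held 4 called of 12, all higher, against the same 0.975%. SRC2, a protein of cold and stress responses, rose from 296.0, 322.1 and 330.2 to 629.5, 613.6 and 682.1, by 0.99 ± 0.13 (limma adjusted p = 0.00615), and passed without each array. HIS1-3, a stress-linked linker histone, rose by 1.26 ± 0.19, OSM34, an osmotin, by 0.78 ± 0.16 and SIS by 0.74 ± 0.16 (limma adjusted p = 0.0116, 0.0428 and 0.0489). The potassium-starved arrays of each lay above the control arrays. WRKY22, a transcription factor of defence signalling, was the called member of 5 WRKY genes, rising from 64.4, 77.2 and 88.9 to 186.2, 234.9 and 193.7, by 1.25 ± 0.16 (limma adjusted p = 0.00615). WRKY53, WRKY6 and WRKY47 stood at -0.63 ± 0.16, 0.59 ± 0.22 and 0.15 ± 0.24. Of 11 jasmonate and ethylene genes 0 passed, against 1.47% of all tested probe sets. These included JAL22 (0.61 ± 0.21), RTE1 (0.36 ± 0.17), ORA47 (0.35 ± 0.17) and JAL34 (0.19 ± 0.14).

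Genes with no name beyond their identifier made up much of the rest. AT3G61930 rose from 77.5, 73.4 and 89.2 to 403.7, 348.1 and 235.9, by 1.82 ± 0.18. AT4G22610 rose by 1.65 ± 0.23 and AT4G33666 by 1.57 ± 0.16 (limma adjusted p = 0.00249, 0.00786 and 0.00249 for the 3 genes). AT2G41730, AT5G38910 (a germin-like protein gene), AT1G53540, AT2G29340 and AT4G00910 rose by 1.36 to 1.55. Control means of AT2G41730, AT1G53540 and AT4G00910 lay below the floor, so their sizes depend on the 16 added.

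Among the falls, AT1G14960 read 304.2, 230.5 and 285.4 against 111.8, 72.4 and 66.8, a change of -1.56 ± 0.19 (limma adjusted p = 0.00615). AT1G73600 read 199.9, 291.1 and 188.5 against 78.2, 60.1 and 79.4, a change of -1.44 ± 0.18 (limma adjusted p = 0.00615). Both passed without each array, and their groups lay far apart. AT3G57010, AT2G19060, AT3G05900, AT5G62360, AT1G65010, AT3G07900 and AT1G80750 fell, with changes from -1.33 to -0.89. AT5G62360 averaged 19.4 under starvation, less than the floor, so its change of -1.05 depends on the 16 added and was -1.53 with 1 added and -0.54 with 64.

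**Figure D3:**
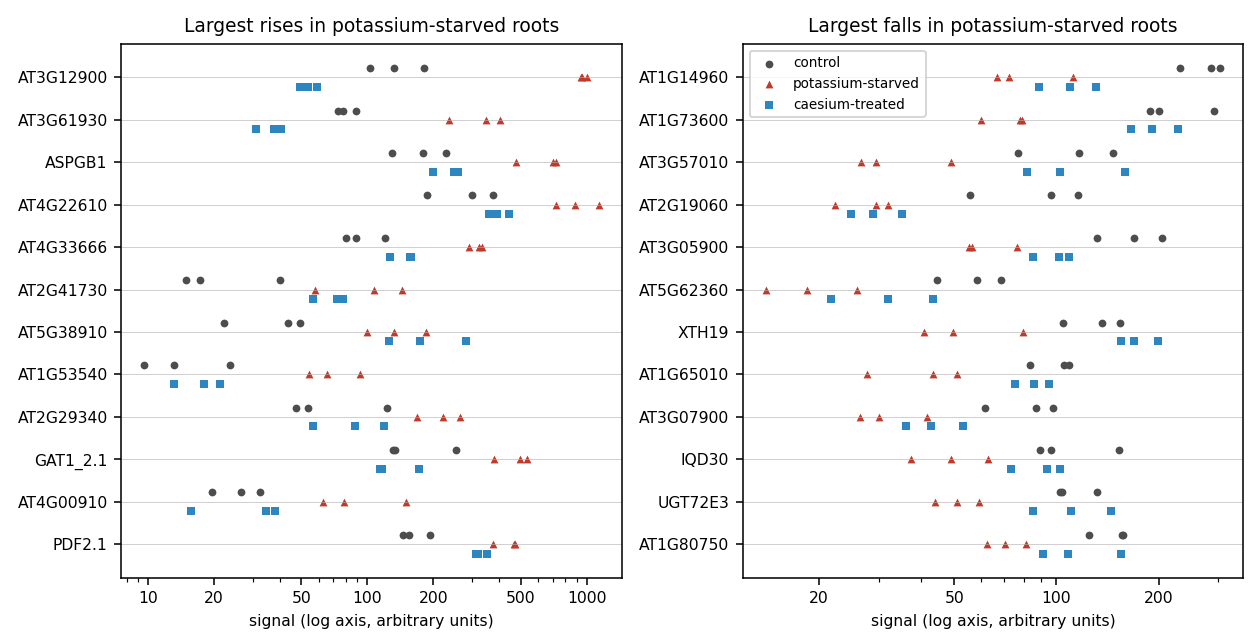
Signal on each root array (log axis) of the 12 largest rises (left) and 12 largest falls (right) of named probe sets; circles are control, triangles potassium-starved and squares caesium-treated arrays. Potassium-starved arrays lie beyond all 3 control arrays for every gene because only such genes were chosen. The caesium-treated arrays of AT3G12900 and AT3G61930 lie below the controls.

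Caesium, a cation chemically like potassium, gave another level for several of these genes. As the called genes were chosen by high or low potassium-starved arrays, an opposite difference in caesium-treated roots is partly built in. This comparison, caesium-treated minus potassium-starved roots, shares the potassium-starved arrays with the one above, and 690 of 13647 probe sets (5.06%) passed, 341 higher and 349 lower; with each array centred on its median the split was 272 and 483. Levels were lower in caesium-treated roots for AT3G12900, at a log2 difference of -3.81, AT3G61930 at -2.69, GAT1_2.1 at -1.70, WRKY22 at -1.56 and ASPGB1 at -1.36 (limma adjusted p = 2.0e-06, 5.2e-05, 0.00584, 0.00105 and 0.0096). AT3G13610 (-0.99) and SRC2 (-0.84) were also lower, and XTH19 (1.42) and AT1G73600 (1.25) higher (limma adjusted p = 0.00706, 0.00751, 0.00579 and 0.00666). By contrast, PDF1.4 (-0.02), PDF2.1 (-0.39), HIS1-3 (-0.27), OSM34 (-0.36) and AT1G14960 (0.35) did not pass (limma adjusted p = 0.942, 0.135, 0.413, 0.181 and 0.292).

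The response also differed between organs for some of the genes, tested as an interaction over all 18 arrays, where 1187 of 11867 probe sets (10.0%) passed. The root part of this test uses the same root arrays by which the genes were chosen. A larger root response of these genes is therefore partly built in. XTH19 read 32.3 ± 8.53 in control and 164.6 ± 55.3 in potassium-starved shoots, while its level fell in roots, and the root minus shoot response was -2.92 (95% interval -3.63 to -2.20, limma adjusted p = 4.8e-05). AT3G13610 read 12.9 ± 10.1 and 291.4 ± 61.4 in shoots, and its root minus shoot response was -2.50 (limma adjusted p = 5.9e-04). Its control shoot mean lay below the shoot floor of 26.7, so the size of that difference depends on the 16 added. SRC2 differed by -1.44 and IRX15-L by -1.39, while ASPGB1 (1.48), AT4G33666 (2.18) and IVD (0.87) had the higher response in roots (limma adjusted p = 0.00153, 0.0191, 0.0152, 5.2e-05 and 0.0301). MGL (0.52), LCR69 (-0.32), PDF1.4 (-0.50), HIS1-3 (-0.11) and AT1G73600 (0.06) did not pass, with wide 95% intervals, such as -1.92 to 0.91 for PDF1.4.

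**Figure D4:**
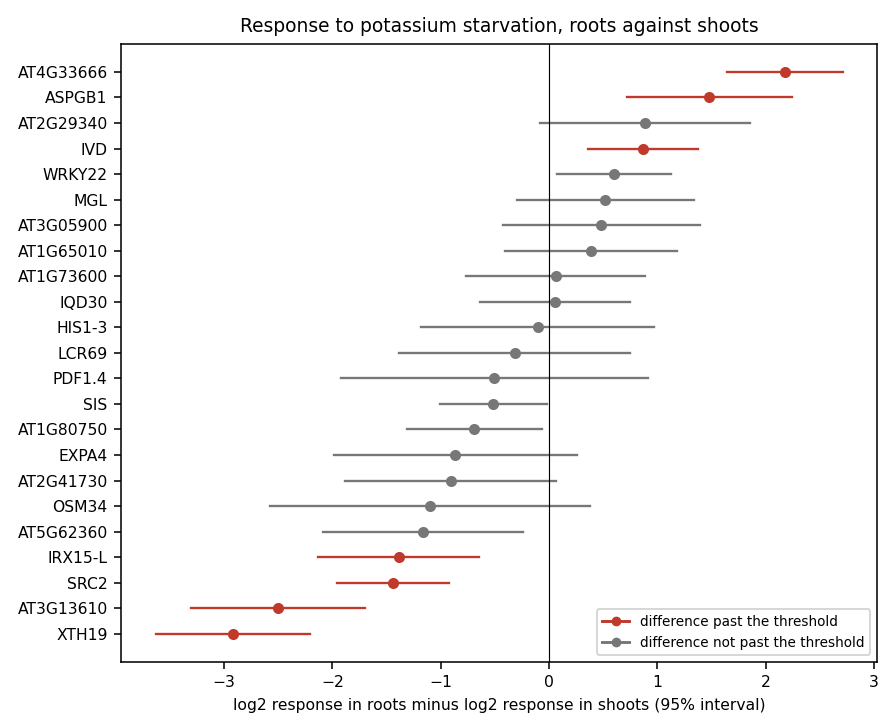
Difference between the root and the shoot log2 response to potassium starvation, with 95% intervals, for the genes among the 38 described that were tested in both organs; red marks an adjusted p under 0.05. XTH19 and AT3G13610 sit furthest to the left and AT4G33666 furthest to the right of the genes shown. The genes were chosen by their root response, which is part of the difference.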

How the data were processed

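The deposited values are microarray signal intensities on a linear scale, 1 per probe set, made by the authors with software not given in the sources used here. With 2% of values trimmed from each end, every array has a mean of 100.01, so the arrays had been scaled to a common level. The number of arrays limits the precision. The 64 control probe sets were removed from 22810, and 16 was added to each intensity before taking log2. Probe sets whose mean log2 value lay above the 40th percentile over the 9 root arrays were tested, which left 13647, and linear models were fitted to those arrays with limma 3.58.1 in R 4.3.3, two-sided, with Benjamini-Hochberg adjustment over all tested probe sets and a threshold of 0.05. The organ difference was an interaction term over 18 arrays and 11867 probe sets. On simulated data for this comparison over 13647 probe sets, 74 of 100 changed by 1 and 97 of 100 changed by 2 on the log2 scale were found, with 9 false calls. The simulated noise was independent between probe sets and equally large on every array, with no difference in scanner background. These rates may therefore not hold for the real arrays.

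Probe sets were named from platform and RefSeq tables: 13513 matched 1 gene, 503 several and 8730 were not listed. The gene lists, 31 in all, and the comparison were chosen with earlier results of these data known. The text names the 12 largest rises and the 12 largest falls among called probe sets with 1 gene and groups that do not overlap, up to 4 members with the smallest p of each list with at least 3 tested members, all tested members of smaller lists and every member of the potassium list. Alternatives covered the value added, the filter, the arrays fitted, the normalization, array weights, scanner background, the replicate number as a block and each array left out. The labels do not say whether replicate numbers pair the root samples. Same-numbered deviations of control and potassium-starved arrays correlated at 0.50, 0.14 and -0.03, and differently numbered ones at -0.40 to 0.41. These values do not settle whether the samples were paired.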

Additional observations from a re-analysis of the deposited data

Results flagged for a closer look

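Genes named in the text whose response to potassium starvation differed between roots and shoots, by the interaction test over 18 arrays, are given as the root response minus the shoot response on the log2 scale. The root part of this test uses the root arrays by which these genes were chosen. The root response was the lower one for CML41 (-4.03), MSRB9 (-3.04), XTH19 (-2.92), AT3G13610 (-2.50), AT1G68570 (-2.21), WRKY53 (-1.90), CYP71B23 (-1.72), PRX52 (-1.44), SRC2 (-1.44), IRX15-L (-1.39), AT2G28710 (-1.29) and WRKY47 (-1.14). CML41 read 39.1 ± 17.7 in control and 1121.8 ± 216.7 in potassium-starved shoots (SD, n = 3), against 28.0 ± 7.40 and 40.5 ± 5.00 in roots. MSRB9 read 79.7 ± 39.6 and 915.1 ± 384.8 in shoots, against 1564.7 ± 129 and 1831.2 ± 229.6 in roots, where it was already bright. The root response was the higher one for AT4G33666 (2.18), UGT72E1 (1.95), ASPGB1 (1.48), ATL8 (1.36), SKU5 (1.32), BGLU42 (1.06), CCL (1.01), CYP71B29 (0.92), GSTU18 (0.87), IVD (0.87) and TBL25 (0.83). A higher root response can also be a smaller decrease. SKU5 was lower under starvation in both organs, less so in roots. It read 837 ± 238.1 and 153.2 ± 7.50 in shoots, against 844.5 ± 220.7 and 423.1 ± 126.6 in roots. At least 1 group mean lay below the floor for AT3G13610 and AT2G28710 (control shoots), CYP71B29 (potassium-starved shoots), PRX52 (potassium-starved roots) and GSTU18 (control roots), so the sizes of these differences depend on the 16 added. The limma adjusted p of these genes lay between 9.5e-06 for CML41 and 0.0415 for GSTU18, and 10.0% of all probe sets tested in both organs passed.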

How the results depend on the processing

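The calls in potassium-starved roots depend on the settings. Against 200 changed, 133 higher and 67 lower, the counts were 130, 87 and 43 with 1 added before the log2, 93, 66 and 27 with no filter, 75, 62 and 13 with only the 6 arrays compared, 1, 1 and 0 with scanner background as a covariate (1164 at an unadjusted p under 0.05), and 1133, 540 and 593 with limma array weights, where potassium-starved replicate 3 had a weight of 3.96 and the other root arrays 0.562 to 1.67. After quantile normalization 39 were lower. Without the 2 root arrays titled as repeats, an alternative added after seeing the data, they were 128, 85 and 43. Leaving out 1 array gave 40 to 238 changed, 34 to 142 higher and 6 to 96 lower. The replicate block, a fit with the replicate number as a block, gave 724 changed, 343 higher and 381 lower. Whether the numbers pair these samples is not known. Caesium-treated against potassium-starved roots gave 690 calls, 2539 with array weights, 331 with scanner background, 1629 with the replicate block and 149 to 623 without 1 array. The organ difference gave 1187 calls, 1897, 360 and 2125 under the same settings and 744 to 1580 without 1 array. The cause of these moves was not tested.

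All 44 called genes named in the text kept their direction in every alternative that could be run. For most alternatives this was fixed in advance, since the potassium-starved and control arrays of every called probe set did not overlap. Leaving out, weighting or blocking arrays, or changing the filter or the value added, could not reverse it. Only the scanner background covariate and the normalizations could have. Changes that took the other sign were all of genes short of the threshold. With scanner background these were CHX16 (0.23), LPR2 (-0.19), VHA-A2 (0.056), AT4G02620 (-0.038), PRXR1 (-0.23), Prx37 (-0.12) and MSRB9 (-0.056), and with array weights VHA-A2 (0.067), VHA-A1 (0.0013), AT4G02620 (-0.00335), ATPMEPCRB (0.12), PRXR1 (-0.077) and Prx37 (-0.047). After quantile normalization they were AT4G02620 (-0.040), PRXR1 (-0.23), Prx37 (-0.012) and JAL34 (-0.019). On leaving out 1 array at a time, the change lay between -0.72 and 0.056 for CHX16, -0.10 and 0.19 for LPR2, -0.26 and 0.020 for VHA-A2, -0.14 and 0.26 for AT3G58730, -0.073 and 0.0015 for VHA-A1, -0.099 and 0.094 for AT4G02620, -0.19 and 0.010 for ATPMEPCRD, -0.43 and 0.37 for ATPMEPCRB, -0.41 and 0.044 for CYP84A4, -0.031 and 0.34 for MAMI and -0.18 and 0.37 for WRKY47. Without the 2 repeat-titled arrays CHX16 stood at 0.056 and LPR2 at -0.037. Signal near background limits genes below the floor, and the promoter motif search was not run.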

Other observations

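Called genes with a symbol that belong to no list were few, and those named here were chosen after their values were seen. ATL8, a RING finger protein, read 121.5, 89.4 and 115.6 in control and 339.0, 252.0 and 240.6 in potassium-starved roots, a rise of 1.23 ± 0.16 on the log2 scale (limma adjusted p = 0.00615) that passed without each array. TRI rose by 0.97 ± 0.18, CCL by 0.96 ± 0.21 and CCMH, of cytochrome c maturation, by 0.79 ± 0.16 (limma adjusted p = 0.0325, 0.0483 and 0.045). The control mean of CCMH, 26.4, lay below the floor, as did its caesium-treated mean, so it entered the test only through its high group and its size depends on the 16 added. NCRK, a receptor-like kinase, fell from 69.0, 85.0 and 98.1 to 41.9, 40.0 and 51.4, by -0.72 ± 0.15 (limma adjusted p = 0.0462). On leaving out each array in turn, TRI and CCL passed in 1 of the 6 fits and CCMH and NCRK in 0. AT2G28710, a zinc finger protein gene, rose from 58.2, 52.4 and 89.2 to 172.4, 178.2 and 167.5, by 1.22 ± 0.16 (limma adjusted p = 0.00647), and passed without each array.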
